A study of Homo sapiens with 24 samples.

Results

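The genes described here encode glucose transporters, the enzymes of glycolysis and of the pentose phosphate pathway, and the enzymes that govern the entry of pyruvate into mitochondria. They numbered 31, taken as a list, and every probe set annotated with the symbol of a single listed gene was collected, which gave 79 of the 54675 probe sets on the array. Of the 79, 64 passed the filter on low values, 12 lay below it and 3 were control probe sets. Each gene is represented by its brightest tested probe set, which left 30 of the 31 genes among 12008 genes tested. ENO2, a neuronal enolase, had a single probe set with a mean of 2.07 on the log2 scale and was not tested.

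RWPE1, the cell line used throughout, is a human prostate epithelial line that was immortalized but does not form tumors, so all samples share 1 genetic background. Cultures received 100 nM 1,25(OH)2D, which is the active hormone made from vitamin D, or the vehicle alone (0.1% ethanol) and were collected after 6, 24 or 48 h. Each of the 6 groups held 4 biological replicates, each on its own Affymetrix U133 Plus 2.0 array, 24 arrays in all. The 48 h cultures, treated and vehicle alike, had their medium changed at 24 h, so cells collected at 24 and 48 h had spent equally long in their last medium. If the replicates of a group were not grown separately, p-values cover the spread among these samples and nothing wider.

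Glycolysis converts glucose to pyruvate and yields ATP without oxygen. Transporters bring glucose into the cell, hexokinase traps it as glucose 6-phosphate, phosphofructokinase commits it to the pathway, and lactate dehydrogenase returns NAD by making lactate. The pentose phosphate pathway branches off at glucose 6-phosphate and supplies NADPH and ribose 5-phosphate, which serve defense against oxidants, lipid synthesis and nucleotide synthesis.

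The cells carried the keratins of basal prostate epithelium, with medians over the 24 arrays of 15.34 for KRT5 and 16.12 for KRT14. The listed markers of epithelium in general had medians of 14.47 for KRT18, 12.97 for KRT8, 12.86 for CDH1 and 7.59 for EPCAM. Bright keratins were therefore not confined to the basal list. Of 6 luminal markers listed, 4 had a probe set of their own. KLK3 among them had a median of 3.86, and KLK2, TMPRSS2 and ACP3, with medians from 2.30 to 2.71, lay below the filter. Of 7 listed markers of other cells, 6 had a probe set of their own. VWF, DCN and DES were below the filter, PTPRC and PECAM1 lay at 3.35 and 3.53, and COL1A1, a collagen of fibroblasts, lay at 10.02 and fell by 0.60 ± 0.11 with 1,25(OH)2D at 48 h (limma, adjusted p = 0.0136). The basal marker LAMB3 rose by 1.78 at 6 h and 0.47 at 48 h, and the part of these shifts in the results was not tested. The first component of the values minus group means held 71.9% of that variance. The 4 arrays with the largest scores on it, in either direction, are called the arrays that stand apart, and their number was fixed. Next in size were treated replicates 3 and 2 at 6 h, with scores of 0.252 and -0.226. The 4 arrays included replicate 1 of the vehicle group at 6 h (-0.346) and at 24 h (-0.36). The rest were replicates 1 and 4 of the treated group at 24 h (0.413 and -0.544). That replicate 4 had the lowest array median, 6.57 against 6.89 to 7.24 in the other arrays. The 24 h results therefore appear below with and without these arrays. The GAPDH control probe sets at the 3′ and 5′ ends of the transcript differed by -0.08 to 0.01 on all 24 arrays. The same difference for ACTB ran from 0.46 to 0.82. At 24 h it was 0.73, 0.53, 0.59 and 0.46 in the treated replicates 1 to 4 and 0.65 to 0.73 with vehicle, and its part in the 24 h results was not tested.

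At 48 h, 4 of the 30 genes rose with 1,25(OH)2D and none fell. They were the hexokinases HK1 and HK2, the platelet-type phosphofructokinase PFKP and the transporter SLC2A1, and the increases ranged from 1.19-fold to 1.80-fold. A gene counts as changed when limma's adjusted p, corrected with the Benjamini-Hochberg method over all tested probe sets, was under 0.05. Among all genes 5.14% rose and 6.87% fell at this time. At 6 h, PFKP alone rose, 1.81-fold, and none fell, against 2.37% and 1.04% of all genes. At 24 h none of the 30 genes passed the threshold in either direction, when 0.516% of all genes did. Of the 30, 4 had an unadjusted p under 0.05, and SAM, the test of the study's methods, called 3. Over all tested probe sets at 24 h, 2229 had an unadjusted p under 0.05 and SAM called 1396, where limma called 92. These are measurements on whole cultures, in which fewer cells of a kind and less RNA per cell cannot be told apart. All differences are on the log2 scale of the deposited values, treated minus vehicle.

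**Figure D1:**
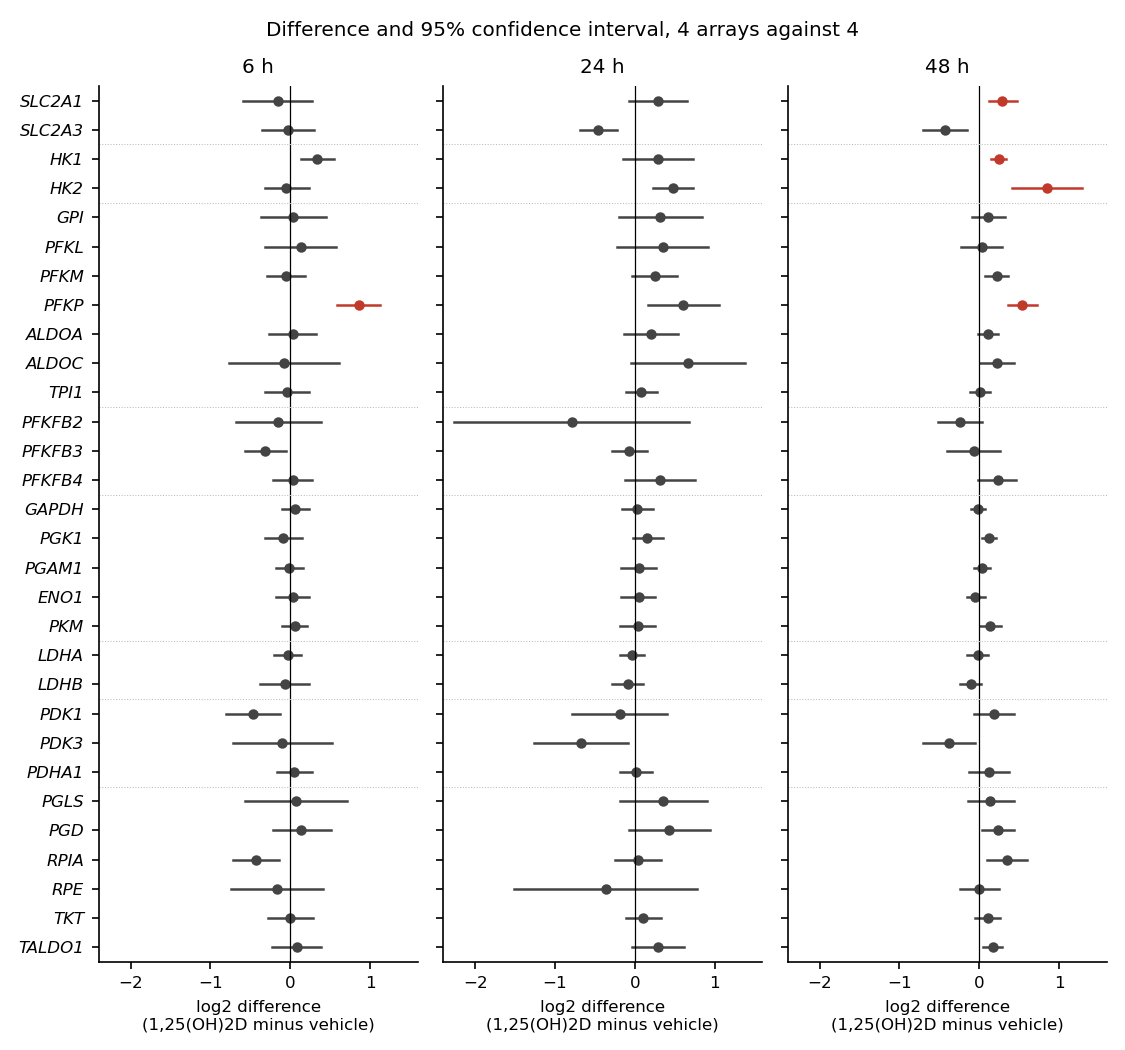
Difference between 1,25(OH)2D and vehicle for the 30 tested genes at 6, 24 and 48 h. The x axis is the log2 difference, points are the limma estimates from 4 arrays against 4, bars are 95% confidence intervals, red marks genes with an adjusted p under 0.05, and dotted lines separate the roles. PFKP is red at 6 h, and SLC2A1, HK1, HK2 and PFKP are red at 48 h. The 24 h intervals are wide for several genes, with PFKFB2 spanning -2.26 to 0.68.

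SLC2A1 encodes GLUT1, the basal glucose transporter of most cells. At 48 h its values were 7.72, 7.62, 7.42 and 7.43 with vehicle and 7.79, 7.89, 7.88 and 7.81 with 1,25(OH)2D. Every treated array lay above every vehicle array. The difference was 0.29 ± 0.076 (SE, n = 4 and 4), or 1.23-fold, and its limma adjusted p of 0.05 fell only just under the threshold. The call was kept in 1 of the 8 fits that left out an array, the fit without vehicle replicate 1, and the adjusted p was 0.0761 to 0.129 in the other fits. At 6 h the values overlapped, with 7.99, 7.92, 7.54 and 7.60 for vehicle and 7.68, 8.05, 7.25 and 7.47 for 1,25(OH)2D. At 24 h the treated arrays read 7.53, 7.64, 7.48 and 8.07, against 7.64, 7.29, 7.30 and 7.31 for vehicle, and the difference of 0.29 ± 0.15 did not pass the test.

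SLC2A3 encodes GLUT3, a transporter with high affinity for glucose. It was lower with 1,25(OH)2D in mean without passing the test, with differences of -0.46 ± 0.10 at 24 h (adjusted p = 0.2) and -0.43 ± 0.12 at 48 h (adjusted p = 0.0581). At 24 h the treated arrays (6.45, 6.81, 6.63 and 6.74) all lay below the vehicle arrays (7.03, 7.12, 7.25 and 7.05). The 2 further probe sets of the gene gave -0.35 and -0.44 at 48 h. Its representative probe set is of the kind whose probes may also match other transcripts, so the signal may include its close copy.

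Hexokinases phosphorylate glucose as it enters the cell, and HK2 is the isoform that growth signals and hypoxia induce. With vehicle at 48 h the HK2 values were 8.31, 8.27, 7.53 and 7.79, and with 1,25(OH)2D they were 8.76, 9.12, 8.77 and 8.64. The groups did not overlap, and vehicle replicates 3 and 4 were the lowest arrays. The increase was 0.85 ± 0.19 (SE, n = 4 and 4), or 1.80-fold, with a limma adjusted p of 0.0302. The call was lost in 6 of the 8 fits that left out an array, with adjusted p from 0.0512 to 0.0851. These were the fits without vehicle replicate 3, vehicle replicate 4 or any of the 4 treated arrays, and the difference in them was 0.70 to 0.91. The other 2 probe sets of HK2, both dimmer, differed by 0.44 ± 0.14 (adjusted p = 0.102) and 0.26 ± 0.078 (adjusted p = 0.0787) at 48 h.

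HK2 also differed between times. Vehicle means in order of time were 8.81 ± 0.19 (SD, n = 4), 8.27 ± 0.13 and 7.97 ± 0.38. Treated means were 8.76 ± 0.14, 8.75 ± 0.15 and 8.82 ± 0.21. HK2 therefore fell in vehicle from 6 to 24 h, by 0.54 ± 0.15 (limma, adjusted p = 0.0308), while the change with 1,25(OH)2D over the same interval was -0.01 ± 0.15. The difference between those changes, 0.53 ± 0.21, was not called (adjusted p = 0.308), and the fall in vehicle was not called without vehicle replicate 3 at 6 h or vehicle replicates 1 or 3 at 24 h (adjusted p from 0.0806 to 0.122). At 24 h the treated values of 8.87, 8.61, 8.90 and 8.63 all lay above the vehicle values of 8.20, 8.37, 8.12 and 8.40, with a difference of 0.48 ± 0.11 that did not pass the test (adjusted p = 0.194). Its 6 h values overlapped, from 8.69 to 9.09 with vehicle and from 8.63 to 8.91 with 1,25(OH)2D.

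HK1 encodes the hexokinase found in most tissues. At 48 h its vehicle values were 12.49, 12.56, 12.48 and 12.49, and its treated values 12.73, 12.81, 12.75 and 12.73. The spread within each group was small, 0.039 and 0.036 (SD), and the groups were separate. The increase of 0.25 ± 0.041, or 1.19-fold, had a limma adjusted p of 0.00854 and stayed below the threshold in all 8 fits that left out an array. The call was lost with the replicate number as a block (adjusted p = 0.0628) and in the fit of all 24 arrays (adjusted p = 0.505). At 6 h the vehicle values were 12.28, 12.24, 12.34 and 12.13 and the treated values 12.65, 12.65, 12.40 and 12.63. Those groups were separate too, with a difference of 0.34 ± 0.092 that missed the threshold (adjusted p = 0.145). At 24 h, vehicle replicate 1 (12.78) stood above the other vehicle arrays (12.36, 12.37 and 12.38), and the treated arrays ran from 12.42 to 13.24.

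Promoter sequence is shown for HK2, PFKP and SLC2A1 to set the letters before their starts beside their response. The windows are the 250 bases before a RefSeq start on the GRCh38.p14 build, read 5′ to 3′ on the gene's strand, in lower case with ACGTG or its reverse complement CACGT in capitals. ACGTG is the core that hypoxia-inducible factors bind, and it also lies inside the palindrome CACGTG read by the MYC and glucose-responsive families. HK2 is shown for the first of its 2 starts in the table (chr2:74833877-74834126, plus strand), PFKP for the only 1 of its 4 starts with a match (chr10:3068939-3069188, plus strand), and SLC2A1 for its single start (chr1:42958869-42959118, minus strand).
HK2: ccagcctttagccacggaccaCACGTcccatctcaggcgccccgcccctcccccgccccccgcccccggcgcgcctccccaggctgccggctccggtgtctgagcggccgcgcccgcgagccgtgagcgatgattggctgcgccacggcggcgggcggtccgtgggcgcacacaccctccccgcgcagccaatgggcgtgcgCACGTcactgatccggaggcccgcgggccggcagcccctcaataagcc
PFKP: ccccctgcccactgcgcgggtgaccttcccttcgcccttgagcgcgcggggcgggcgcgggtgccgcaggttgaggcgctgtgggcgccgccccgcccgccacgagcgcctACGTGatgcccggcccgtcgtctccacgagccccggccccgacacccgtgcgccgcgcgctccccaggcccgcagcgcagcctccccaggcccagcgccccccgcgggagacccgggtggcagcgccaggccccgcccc
SLC2A1: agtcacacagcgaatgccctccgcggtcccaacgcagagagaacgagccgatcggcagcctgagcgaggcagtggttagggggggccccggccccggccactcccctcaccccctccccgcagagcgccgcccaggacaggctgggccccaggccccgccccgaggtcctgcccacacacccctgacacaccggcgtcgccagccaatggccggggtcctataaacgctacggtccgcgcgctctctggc
HK2 held CACGT at positions -229 and -48 from the start, both HK2 windows held the motif, and the second, at chr2:74834920-74835169, held CACGTG beginning at -194 and at -149. PFKP held ACGTG at -139 and SLC2A1 held none. None of the 7 HK1 windows held it either. Over the genes of the list, 15 of the 29 with a window in the table had a match in at least 1 window, that is 51.7%, against 21.7% of all 27305 genes. Those are all genes with a window, not the 12008 tested here, and they were not matched to the listed genes by signal or base content. The listed genes had 51 windows, more per gene than the rest, and by window the motif lay in 18 of the 51 (35.3%), against 18.5% of all 35116. LDHA, which was not called at any time, had matches as well. CACGTG holds both ACGTG and CACGT and was counted as a match on each strand. Half-sites of the vitamin D receptor, searched on both strands as AGGTCA, as AGTTCA, as GGGTCA and as GGTTCA, occurred in 8 of the 29 genes (27.6%), against 38.8% of all genes, and in 13 of the 51 windows (25.5%), against 33.8% of all windows. Among the genes called at 48 h they lay in 4 of the 7 HK1 windows, in the second HK2 window and in 2 of the 4 PFKP windows, and SLC2A1 held none. The PFKP window printed here held TGACCT, the reverse complement of AGGTCA, at -230. A match describes letters only and is no evidence of binding.

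Upper glycolysis runs from glucose 6-phosphate to the triose phosphates, and 1 of its 7 genes was called against vehicle, at 6 and 48 h. PFKP encodes the platelet-type phosphofructokinase, 1 of 3 isoforms of the committing enzyme. At 6 h its vehicle values were 11.60, 11.31, 11.39 and 11.11, and its treated values 12.28, 12.24, 12.06 and 12.25. All treated arrays were above all vehicle arrays, and the increase was 0.86 ± 0.12 (SE, n = 4 and 4), with a limma adjusted p of 0.00625. At 24 h the vehicle arrays read 11.44, 10.88, 11.04 and 10.98 and the treated arrays 11.26, 11.75, 11.72 and 12.05. Those groups overlapped through the replicate 1 arrays of both, which are among those that stand apart, and the difference of 0.61 ± 0.19 did not pass the test (adjusted p = 0.41). Without the 4 arrays it was 0.77 ± 0.075 and passed (adjusted p = 0.0131). At 48 h the values were 10.96, 11.12, 10.88 and 11.07 with vehicle and 11.71, 11.46, 11.59 and 11.46 with 1,25(OH)2D. The groups were again separate, with an increase of 0.54 ± 0.078, or 1.46-fold (adjusted p = 0.0047). The calls at 6 and 48 h held in all 8 fits that left out an array, while at 6 h centring each array on its median moved the adjusted p to 0.0502. PFKP was thus the gene of the list with a call at both 6 and 48 h. The later response was -0.31 ± 0.20 relative to the earlier, which was not called (adjusted p = 0.8).

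The other phosphofructokinase isoforms were not called against vehicle. PFKM, the muscle type, differed by 0.22 ± 0.062 at 48 h (adjusted p = 0.07), with treated values of 11.84, 12.06, 11.96 and 11.90 all above vehicle values of 11.77, 11.61, 11.74 and 11.76. PFKL, the liver type, differed by 0.03 ± 0.11. GPI, which interconverts the hexose phosphates, differed by 0.11 ± 0.09.

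ALDOA, the main aldolase outside liver and brain, read 14.59, 14.65, 14.64 and 14.64 with vehicle at 48 h and 14.77, 14.61, 14.78 and 14.79 with 1,25(OH)2D. Treated replicate 2 lay among the vehicle arrays and the other treated arrays above them, and the difference of 0.11 ± 0.052 did not pass (adjusted p = 0.259). At 6 h ALDOA ran from 14.33 to 14.75 with vehicle and from 14.30 to 14.68 with 1,25(OH)2D, and at 24 h from 14.44 to 14.81 and from 14.49 to 15.05. ALDOC, the brain aldolase, gave 0.22 ± 0.09 at 48 h (adjusted p = 0.192). TPI1, which interconverts the triose phosphates, gave 0.01 ± 0.057, with a 95% interval from -0.12 to 0.14.

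The bifunctional PFKFB enzymes set the level of fructose 2,6-bisphosphate, an activator of phosphofructokinase. None of the 3 was called at any time. PFKFB3, an isoform with strong kinase activity, read 8.78, 9.02, 9.26 and 9.0 with vehicle at 6 h and 8.73, 8.63, 8.67 and 8.80 with 1,25(OH)2D. The groups overlapped in a single pair of arrays, and the difference was -0.31 ± 0.11 (adjusted p = 0.357). At 48 h the vehicle arrays read 8.59, 8.39, 8.15 and 8.37 and the treated arrays 8.09, 8.67, 8.12 and 8.34, a difference of -0.07 ± 0.14. PFKFB2 differed by -0.24 ± 0.12 at 48 h, and at 24 h treated replicate 4, an array that stands apart, read 4.65 against 6.53 to 7.53 in the other treated arrays. PFKFB4 had group means from 2.99 to 3.31, close to the filter at 3.205, and differed by 0.23 ± 0.10 at 48 h (adjusted p = 0.239).

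Lower glycolysis, from glyceraldehyde 3-phosphate to pyruvate, held some of the brightest probe sets of the list, and none of its 5 tested genes was called against vehicle at any time. GAPDH, the dehydrogenase often used as a reference gene, read 15.44, 15.49, 15.46 and 15.45 with vehicle at 48 h and 15.43, 15.39, 15.50 and 15.44 with 1,25(OH)2D. The values were interleaved, the difference was -0.02 ± 0.040, and its 95% interval ran from -0.11 to 0.07. Over all 24 arrays GAPDH stayed between 15.30 and 15.55. ENO1, the main enolase, differed by -0.05 ± 0.051 at 48 h, and PGAM1, a phosphoglycerate mutase, by 0.04 ± 0.042. PKM, the pyruvate kinase of most tissues, gave 0.14 ± 0.057 (adjusted p = 0.181). In all, 10 of the 30 genes had a mean above 14 in a table whose highest value was 16.29, and whether brightness limited the differences these probe sets could show was not tested.

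PGK1, a phosphoglycerate kinase that makes ATP, read 14.36, 14.32, 14.32 and 14.28 with vehicle at 48 h and 14.46, 14.40, 14.41 and 14.47 with 1,25(OH)2D. The groups were separate by a small margin, and the difference of 0.12 ± 0.040 was not called (adjusted p = 0.112). Of its 5 other tested probe sets, 1 rose at 48 h, by 0.29 ± 0.075 (limma, adjusted p = 0.0492), when 4.02% of all probe sets rose. The remaining 4 gave 0.05 to 0.22.

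Lactate dehydrogenase has an LDHA subunit, which favors making lactate, and an LDHB subunit, and neither gene was called at any time. LDHA read 14.78, 14.66, 14.67 and 14.70 with vehicle at 48 h and 14.60, 14.80, 14.69 and 14.64 with 1,25(OH)2D, so that the treated values spanned the vehicle values. The difference was -0.02 ± 0.055, and the intervals at 6, 24 and 48 h all lay between -0.20 and 0.13. LDHB differed by -0.11 ± 0.056 at 48 h, with an interval from -0.24 to 0.02.

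At the entry of pyruvate into mitochondria, PDK1 and PDK3 are kinases that switch off the pyruvate dehydrogenase complex, and PDHA1 is a subunit of the enzyme that starts its reaction. PDHA1 read 10.75, 10.83, 10.89 and 10.81 with vehicle at 48 h and 10.83, 11.28, 10.87 and 10.79 with 1,25(OH)2D. Treated replicate 2 was the high array, and the difference of 0.12 ± 0.11 did not pass. PDK1 differed by -0.47 ± 0.15 at 6 h (adjusted p = 0.231) and by -0.19 ± 0.25 and 0.19 ± 0.11 at the later times, none of them called. PDK3 gave -0.67 ± 0.25 at 24 h (adjusted p = 0.517) and -0.38 ± 0.14 at 48 h (adjusted p = 0.159).

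In the pentose phosphate pathway none of the 6 genes was called against vehicle at any time. PGLS and PGD act in the oxidative branch, where PGD makes NADPH, and RPIA, RPE, TKT and TALDO1 in the branch that rearranges sugars. RPIA, which makes ribose 5-phosphate, changed the direction of its difference with time. At 6 h it read 8.07, 8.31, 8.48 and 8.45 with vehicle and 7.87, 7.71, 8.11 and 7.92 with 1,25(OH)2D, a difference of -0.43 ± 0.13 (adjusted p = 0.189). At 24 h the values were 7.42, 7.74, 7.77 and 7.60 against 7.91, 7.61, 7.72 and 7.45, a difference of 0.04 ± 0.13. At 48 h they were 7.35, 7.42, 7.70 and 7.65 with vehicle and 7.68, 8.04, 7.96 and 7.83 with 1,25(OH)2D. The treated arrays were lower than vehicle at 6 h with a small overlap and higher at 48 h with a small overlap, and the 48 h difference was 0.35 ± 0.11 (adjusted p = 0.0944).

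The remaining genes of the pathway were not called at 48 h. TALDO1 (transaldolase) gave 0.17 ± 0.051 (adjusted p = 0.0927), and its treated arrays (13.06, 12.87, 12.99 and 12.99) reached or passed the highest vehicle array, 12.87. PGD gave 0.24 ± 0.084 (adjusted p = 0.138). TKT (transketolase) read 14.65, 14.70, 14.65 and 14.67 with vehicle and 14.86, 14.58, 14.84 and 14.82 with 1,25(OH)2D, where treated replicate 2 was the lowest of the 8 arrays and the other treated arrays the highest. Its difference was 0.11 ± 0.068 (adjusted p = 0.432). PGLS and RPE gave 0.14 ± 0.12 and 0.00 ± 0.11.

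Treated replicate 2 had this position at 48 h for several genes. Without it 8 genes were called at 48 h in place of 4, and these were HK1, PFKP, ALDOA, ALDOC, PGD, TALDO1 and TKT, which rose, and SLC2A3, which fell. HK2 and SLC2A1 were not among them. Over all tested probe sets the calls in that fit numbered 3547 in place of 2506. Without vehicle replicate 3, vehicle replicate 4, or treated replicate 1, 3 or 4, 2 genes were called, HK1 and PFKP in each case, and the calls over all probe sets numbered 1615 to 2065.

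**Figure D2:**
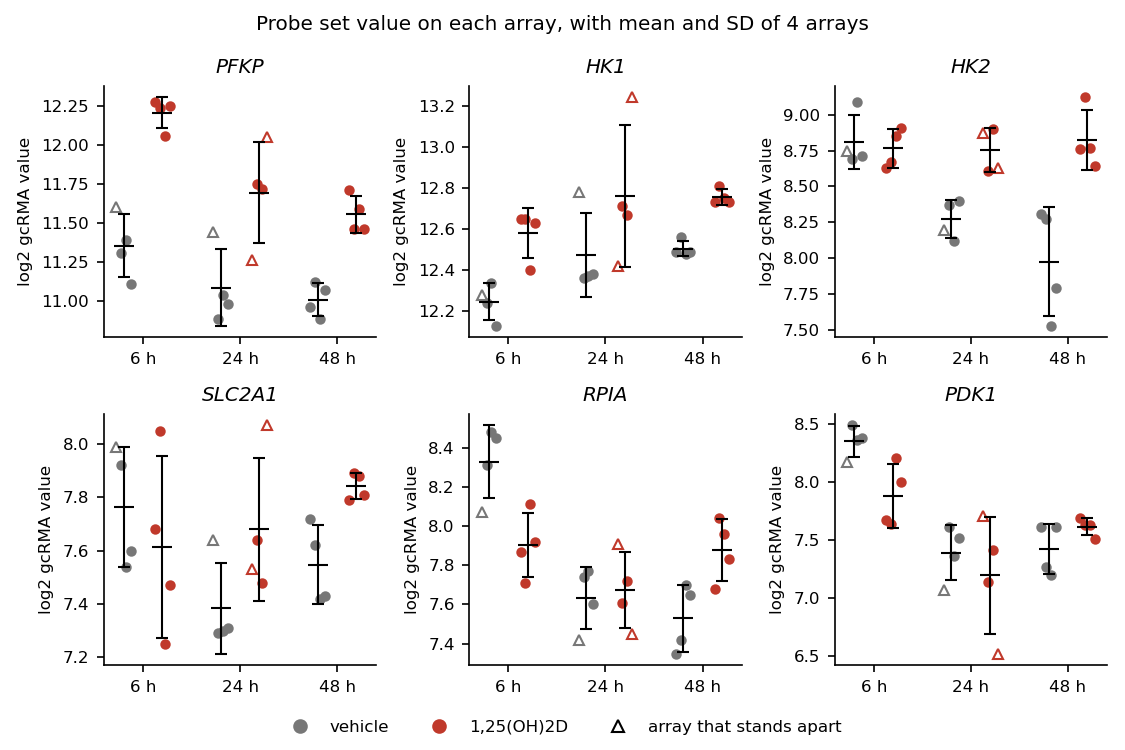
Values of 6 genes on each of the 24 arrays. The y axis is the log2 gcRMA value of the probe set, gray points are vehicle and red points 1,25(OH)2D at 6, 24 and 48 h, open triangles are the 4 arrays that stand apart, and black bars are the mean and SD of 4 arrays. PFKP is higher with treatment at 6 and 48 h, HK2 declines with time in vehicle from a mean of 8.81 to 7.97 and stays at 8.75 to 8.82 with treatment, and PDK1 is lower at 24 h than at 6 h in both treatments.

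Taken over all 30 genes, the median difference was -0.0193 at the first time, then 0.0964, and 0.117 at the last, and the medians of all 12008 genes at these times were -0.0287, 0.0112 and -0.00912. At 48 h 22 of the 30 genes lay above 0, as did 45.3% of all genes, and at 6 h 14 of the 30 did, beside 41.4% of all genes. All 7 genes of upper glycolysis and all 6 of the pentose phosphate pathway lay above 0 at 48 h, most of them without a call, and both lactate dehydrogenase genes lay below 0.

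The mean of the 30 genes on each array summarises this. In the 3 vehicle groups, in order of time, it was 11.10 ± 0.03 (SD, n = 4), 11.08 ± 0.042 and 11.09 ± 0.022. With 1,25(OH)2D it was 11.09 ± 0.056, 11.17 ± 0.059 and 11.19 ± 0.019. At 48 h the treated arrays ran from 11.17 to 11.22 and the vehicle arrays from 11.07 to 11.11, without overlap. At 24 h treated replicate 1 (11.08) fell among the vehicle arrays, and the other treated arrays lay at 11.19, 11.19 and 11.22. The array medians of treated replicates 1 to 4 at 24 h were 7.14, 6.91, 7.04 and 6.57, and replicates 1 and 4 stand apart in opposite directions. Vehicle replicate 1 at 24 h, which also stands apart, had a mean of 11.14 and a median of 6.89. The part of such array-wide shifts in this mean was not tested. The difference at 48 h is small beside the changes of the called genes. Of the 30 genes, 26 were not called at 48 h and 8 lay below 0. No test was made of this mean.

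**Figure D3:**
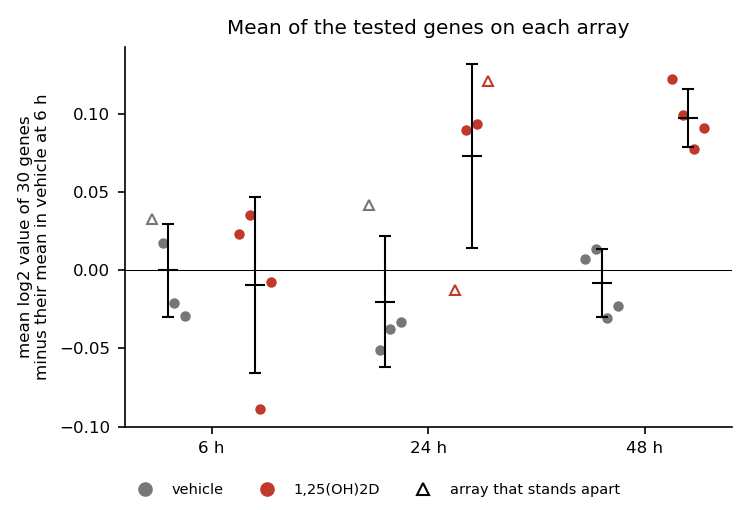
Mean of the 30 tested genes on each array. The y axis is the mean log2 value minus the mean of the vehicle arrays at 6 h, colors and triangles are as for the single genes, and bars are the mean and SD of 4 arrays. The 4 treated arrays at 48 h, at 0.0776 to 0.122, lie above the 4 vehicle arrays, at -0.0305 to 0.0137.

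Leaving out the 4 arrays that stand apart left 3 vehicle and 2 treated arrays at 24 h and brought 11 of the 30 genes past the threshold, with 24.8% of all genes called in that fit. Since these arrays were chosen for their distance from their groups, the spread is narrowed by the choice. The 9 that rose were HK1, PFKP, PFKL, PFKM, GPI, ALDOC, PGD, PGLS and TALDO1, and the 2 that fell were SLC2A3 and PDK3. ALDOC gave 0.82 ± 0.17 (limma, adjusted p = 0.0361), PGD 0.59 ± 0.095 (adjusted p = 0.022) and HK1 0.32 ± 0.059 (adjusted p = 0.0269). HK2 gave 0.46 ± 0.13 and was not called (adjusted p = 0.0684). Within vehicle at 24 h, replicate 1 was the highest array for GPI (13.49 against 12.83 to 13.05), for PFKL (9.88 against 9.30 to 9.39) and for PGLS (11.78 against 10.98 to 11.14). In the treated group at 24 h, replicate 4 was the highest for the same 3 genes, at 13.89, 10.37 and 12.03. These arrays had low array medians of 6.89 and 6.57, and the part of that in the 24 h values was not tested.

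Whether the response differed between times was tested across all 24 arrays. Between 24 and 6 h the response of none of the 30 genes was called (limma, smallest adjusted p 0.239, for RPIA, and 5 genes with an unadjusted p under 0.05), when 2.84% of all genes did. Between 48 and 6 h the response of 2 of the 30 genes was higher at 48 h, HK2 by 0.90 ± 0.21 (limma, adjusted p = 0.0215) and RPIA by 0.77 ± 0.17 (adjusted p = 0.0144), and none was lower. Of all genes 1.47% were higher and 2.23% lower. The call of RPIA held in all 16 fits that left out an array, and that of HK2 was lost without vehicle replicate 3 at 6 h, treated replicate 1 at 6 h or vehicle replicate 4 at 48 h, with adjusted p from 0.0508 to 0.0543.

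Between 6 and 24 h the time in culture and the age of the medium changed together and cannot be told apart. Vehicle cells changed in 4 of the 30 genes over this interval. SLC2A3 rose by 0.50 ± 0.12 (limma, adjusted p = 0.0139), and HK2, RPIA and PDK1 fell. RPIA fell by 0.70 ± 0.12 (adjusted p = 0.00101) and PDK1 by 0.96 ± 0.19 (adjusted p = 0.00253), with no overlap between the times. PDK1 read 8.17, 8.49, 8.36 and 8.38 at 6 h and 7.07, 7.61, 7.36 and 7.52 at 24 h. Among all genes 5.07% rose and 3.9% fell. Without vehicle replicate 3 at 24 h, the count was 2, RPIA and PDK1. From 24 to 48 h none of the 30 genes was called in vehicle (smallest limma adjusted p 0.119, for PFKFB3, and 1 gene with an unadjusted p under 0.05), with 0.425% of all genes called.

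With 1,25(OH)2D, 7 of the 30 genes rose and 2 fell from 6 to 24 h, while 11.2% of all genes rose and 8.19% fell. PFKM rose by 0.58 ± 0.099 (limma, adjusted p = 0.000404), ALDOC by 0.97 ± 0.27 (adjusted p = 0.0187), PGD by 0.63 ± 0.17 (adjusted p = 0.016) and TALDO1 by 0.51 ± 0.12 (adjusted p = 0.00645). GPI, TKT and PGK1 rose by 0.53, 0.38 and 0.25. PDK1 fell by 0.69 ± 0.19 (adjusted p = 0.0179), and PFKP fell by 0.51 ± 0.14 (adjusted p = 0.0175) from its 6 h level. The same 9 genes passed without the 4 arrays that stand apart. The count was 3 without treated replicate 3 or replicate 4 at 6 h and 4 without treated replicate 4 at 24 h, and PFKM and TALDO1 were called in each of these fits. From 6 to 24 h vehicle means moved the same way without a call for PFKM (11.36 to 11.64), ALDOC (9.61 to 9.83) and PGD (11.76 to 12.09). So did those of TALDO1 (12.48 to 12.77), GPI (12.84 to 13.09), TKT (14.25 to 14.53) and PFKP (11.35 to 11.08), while PGK1 stayed at 14.31. From 24 to 48 h none of the 30 genes was called with 1,25(OH)2D, when 2.43% of all genes were and 2 of the 30 had an unadjusted p under 0.05. PFKFB3 came closest, with a change of -0.46 ± 0.12 (adjusted p = 0.0564), and it gave -0.46 ± 0.12 in vehicle as well (adjusted p = 0.119). Without treated replicate 1 at 24 h or treated replicate 2 at 48 h its fall was called.

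**Figure D4:**
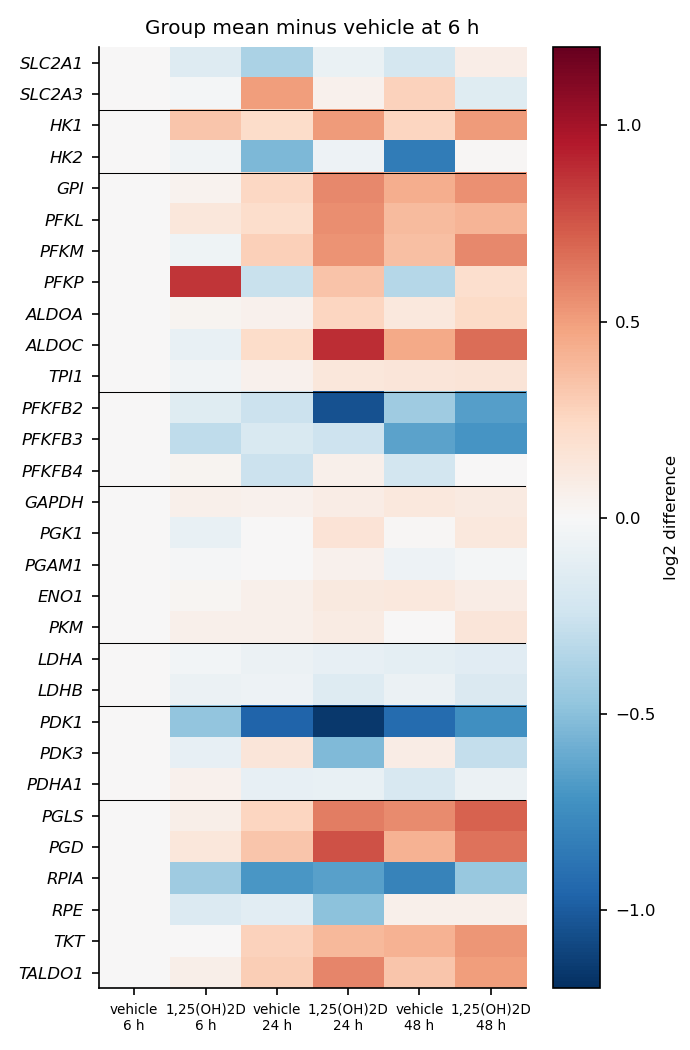
Group means of the 30 tested genes relative to vehicle at 6 h. Rows are genes, grouped by role between black lines, columns are the 6 groups, and color is the log2 difference from the vehicle mean at 6 h, red for higher and blue for lower. PDK1 and RPIA are blue at 24 h in both treatments, PFKP is red with 1,25(OH)2D at 6 h, and HK2 is blue in vehicle alone at 24 and 48 h.

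Other genes of glucose handling were taken from a list of transporters, glycolytic and related enzymes, pyruvate dehydrogenase subunits and regulators, and pentose phosphate enzymes outside the 31. Of 50 listed and 30 tested, none was called by limma at 6 or 24 h, when 3 and 1 had an unadjusted p under 0.05. At 48 h none rose and 3 fell, beside 5.14% and 6.87% of all genes, with a median difference over the 30 of -0.0141. SLC2A10, a further glucose transporter, fell by 0.76 ± 0.19 (limma, adjusted p = 0.0436) from a low level. BPGM, which makes 2,3-bisphosphoglycerate, fell by 0.36 ± 0.067 (adjusted p = 0.0139). PDP1, a phosphatase that reactivates pyruvate dehydrogenase, fell by 0.44 ± 0.093 (adjusted p = 0.0241). SLC2A6, a transporter of intracellular membranes, had a response 0.95 higher at 24 h than at 6 h (adjusted p = 0.0458). It differed from vehicle by -0.54 at 6 h and by 0.41 at 24 h, and neither difference was itself called.

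Regulators of glucose uptake and glycolysis numbered 16 tested, with a median difference of 0.0117 at 48 h. At 24 h none was called, when 0.516% of all genes were, and 4 had an unadjusted p under 0.05. At 6 h 1 rose and none fell, beside 2.37% and 1.04% of all genes. ARRDC4, an arrestin related to TXNIP that limits glucose uptake, was the 1 that rose, by 1.16 ± 0.21 (limma, adjusted p = 0.0286). At 48 h it rose by 0.42 ± 0.10 (adjusted p = 0.0436), and so did HIF1A, the oxygen-regulated subunit of hypoxia-inducible factor, by 0.53 ± 0.05 (adjusted p = 0.00063), and ESRRA, a nuclear receptor of energy metabolism, by 0.67 ± 0.064 (adjusted p = 0.000655). These were the 3 regulators that rose at 48 h and none fell, beside 5.14% and 6.87% of all genes. HIF1A differed by 1.05 at 6 h without passing the test (adjusted p = 0.119). TXNIP, which restrains glucose uptake, was not called against vehicle, at -0.20, -0.47 and -0.24. It rose from 6 to 24 h in both treatments, by 1.96 with vehicle (adjusted p = 2.55e-08) and by 1.69 with 1,25(OH)2D (adjusted p = 3.31e-08). With TXNIP included, 2 regulators rose and 1 fell in vehicle over this interval, beside 5.07% and 3.9% of all genes. With 1,25(OH)2D 3 rose and 4 fell, beside 11.2% and 8.19% of all genes. MYC, a factor that drives growth and glycolytic genes, had a response 0.47 higher at 48 h than at 6 h (limma, adjusted p = 0.0433). No other regulator was called in that comparison, when 1.47% of all genes were higher and 2.23% lower. Neither response of MYC was itself called.

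Genes induced by hypoxia that are no glycolytic enzymes changed in both directions, with medians over the 14 tested of -0.041, -0.203 and -0.108 at the 3 times. At 6 h 4 rose and 1 fell, beside 2.37% and 1.04% of all genes. ADM, a vasodilator peptide, rose by 1.18 ± 0.12 (limma, adjusted p = 0.00131), INSIG2 by 1.16 ± 0.19, DDIT4 by 0.90 ± 0.079 and BHLHE40 by 0.71 ± 0.14, and NDRG1 fell by 0.74 ± 0.12 (adjusted p = 0.0129). At 24 h CA12, a carbonic anhydrase, rose by 0.64 ± 0.078 (adjusted p = 0.0257). At 48 h 3 rose, CA12 by 1.00 ± 0.16, ADM by 0.52 ± 0.059 and DDIT4 by 0.23 ± 0.054, and 4 fell, beside 5.14% and 6.87% of all genes. Those that fell were BNIP3L, a mitophagy receptor, by 0.86 ± 0.073 (adjusted p = 0.000371), P4HA2 by 0.62 ± 0.069, BNIP3 by 0.32 ± 0.05 and NDRG1 by 0.26 ± 0.063. The response was higher at 24 h than at 6 h for 1 of the 14 and lower for 4, when 2.84% of all genes were called. At 48 h against 6 h it was higher for 1 and lower for 5, beside 1.47% and 2.23% of all genes.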

How the data were processed

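RNA from RWPE1 cells was hybridised to 24 Affymetrix U133 Plus 2.0 arrays, 4 for each of 6 groups set by treatment and time. The authors computed gcRMA values from all arrays together and deposited them on the log2 scale; the gcRMA version is not given in the sources used here. The number of arrays limits the precision. No 2 columns were identical. The members, their roles and the other lists were chosen with earlier results of these data known. After leaving out 62 control probe sets, as many probe sets as the study kept were tested, those with the highest values reached by 3 arrays of a group, down to 3.205. Each gene was read from the brightest of its tested probe sets that carried no other symbol, named from the platform annotation (21885 tested probe sets had 1 symbol, 1087 several and 3014 none). The study's methods used SAM, which was rewritten over all 70 relabellings and served as an alternative. Each treatment comparison was fitted with limma 3.58.1 in R 4.3.3 on its 8 arrays, and comparisons across times on all 24, with a threshold of 0.05 on Benjamini-Hochberg adjusted p over all tested probe sets. Every member was named, with array values for those called against vehicle or between times of treatment and the brightest of each role. Array values of PFKM, PGK1, TALDO1, SLC2A3, PDK1, PFKFB2, GPI, PFKL and PGLS were added after their differences were seen. Alternatives changed the filter, normalization, offset, variance model, replicate block, arrays in the fit, probe set rule and test, and left out each array. Scripts were tested on simulated data. Motifs were searched in RefSeq promoter windows of GRCh38.p14, which held 29 of the 31 genes. The RT-PCR and ChIP data of the study were not used here.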

Additional observations from a re-analysis of the deposited data

Results flagged for a closer look

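In 16 of 180 groups of 4 arrays, 1 array lay far from the other 3 (Dixon's test of its gap to the nearest array over the range of the group, at the 95% level), where chance gives about 1 in 20. Of these, 6 were vehicle replicate 1 at 24 h, an array that stands apart from its group across all genes. It was the highest of its group for SLC2A1 (7.64), HK1 (12.78), PFKL (9.88), PGAM1 (14.44), ENO1 (14.95) and TKT (14.74). At 48 h treated replicate 2 was far from its group for ALDOA (14.61), TKT (14.58) and PDHA1 (11.28), and treated replicate 1 for PGAM1 (14.32). In vehicle at 48 h the far arrays were replicate 4 for SLC2A3 (6.69), replicate 2 for HK1 (12.56), and replicate 1 for ALDOA (14.59) and PKM (14.55). At 6 h they were treated replicate 3 for HK1 (12.40) and vehicle replicate 3 for HK2 (9.09).

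The response to 1,25(OH)2D differed between 48 and 6 h, by limma's test of the difference over all 24 arrays, for HK2 by 0.90 (adjusted p = 0.0215) and for RPIA by 0.77 (adjusted p = 0.0144). For RPIA neither response was itself called.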

How the results depend on the processing

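Correlations between same-numbered deviations were 0.756, -0.366, 0.589 and 0.67 at 6 h. They ran from -0.889 to 0.352 at 24 h and from -0.118 to -0.0087 at 48 h. Because 1 component held 71.9% of the variance of these deviations, they cannot show whether the replicate numbers pair the arrays. With the replicate number as a block, the genes called were 1 at 6 h, 0 at 24 h and 2 at 48 h, where HK1 and SLC2A1 were lost. The block moved the calls over all probe sets from 699 to 824 at 6 h. It moved them from 92 to 1 at 24 h and from 2506 to 1354 at 48 h. Over 20 called gene comparisons, 305 of 366 alternative values kept the call, 61 lost it and 0 turned direction. These values are not all independent. At 48 h the fit without the 4 arrays that stand apart is the main fit, since none of them is a 48 h array. At 6 h it is the fit without vehicle replicate 1, which is counted as well. At 6 h the count of 1 became 2 with a second quantile normalization, 0 with arrays centred on their medians and 4 by SAM (HK1, PDK1, PFKP and RPIA). At 24 h the count of 0 became 1 with all 24 arrays in 1 fit, 11 without the 4 arrays that stand apart and 3 by SAM (HK2, PFKP and SLC2A3). At 48 h the count of 4 became 7 with centring, 8 by SAM and 2 (HK2 and PFKP) with all 24 arrays in 1 fit. For responses differing between 24 and 6 h, 0 became 1 (RPIA) with a second quantile normalization and with centring. With 1,25(OH)2D from 24 to 48 h, 0 became 1 (PFKFB3) with the second quantile normalization, the offset of 32 and with probe sets averaged per gene. Centring moved the median of the 30 genes at 24 h from 0.0964 to 0.262, and that of all probe sets from 0.0161 to 0.182.

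Leaving out each array in turn gave counts of 1 to 1 at 6 h, 0 to 0 at 24 h and 2 to 8 at 48 h, with medians from -0.0214 to 0.0215, 0.078 to 0.157 and 0.0885 to 0.141. For responses differing from 6 h the counts were 0 to 0 at 24 h and 1 to 2 at 48 h. From 6 to 24 h and from 24 to 48 h they were 2 to 5 and 0 to 0 in vehicle, and 3 to 13 and 0 to 1 with 1,25(OH)2D. Whether high signal, or signal near the filter as for PFKFB4, limited the differences was not tested, nor were the causes of these shifts.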
